A study of Mus musculus with 9 samples.

Results

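Resting CD8 T cells of the mouse liver were chosen from single-cell RNA-seq counts as cells that carried T cell receptor and CD8 transcripts and little of a pair of effector transcripts. A cell was taken if it had 200 or more detected genes, at least 1 unique molecular identifier (UMI, standing for 1 captured RNA molecule) of Cd3d, Cd3e and Cd3g together, at least 1 of Cd8b1, fewer than 3 of Nkg7 and Ccl5 together, 0 of the B cell gene Cd79a and fewer than 5 of the macrophage genes C1qa, C1qb and C1qc together. This rule found 153 of the 8527 cells with 200 or more genes. Because it reads measured counts, the levels of these 10 genes are described and never tested. Whole livers of C57BL/6 mice were dissociated with collagenase and profiled in 9 droplet libraries, each given by its labels as a replicate of a group. The WT group had the genotype ROSA26-rtTA-IRES-EGFP; WT and 7 days of doxycycline food (n = 2). The YAP3d and YAP7d groups had the genotype ROSA26-rtTA-IRES-EGFP; tetYAP, in which doxycycline induces the transcriptional co-activator YAP, and received doxycycline food for 3 days (n = 4) or 7 days (n = 3). All groups thus shared the rtTA allele and doxycycline. The study's methods describe an Alb-Cre cross, and Alb-Cre acts in hepatocytes, so YAP was induced in hepatocytes of the YAP3d and YAP7d livers and not in WT. WT and YAP3d mice differed in the length of doxycycline feeding as well as in genotype, and these cannot be told apart in that comparison.

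CD8 T cells recognise peptides on MHC class I molecules through the T cell receptor and the CD8 coreceptor. Resting cells, which are naive or long rested, depend on interleukin 7 for survival, are kept in a quiescent state by transcription factors such as Lef1, Tcf7, Klf2 and Bach2, and circulate between blood and lymph nodes with the help of Ccr7 and S1pr1. Activated and memory cells instead carry granzymes, interferon gamma, the chemokine receptor Cxcr3 and the beta chain of the interleukin 2 and 15 receptors (Il2rb), and they make up much of the CD8 population that the liver retains.

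The WT replicates held 4 and 39 of these cells, the YAP3d replicates 3, 7, 7 and 57, and the YAP7d replicates 6, 4 and 26. WT replicate 2, YAP3d replicate 4 and YAP7d replicate 3 therefore held most of them. The cells had a median of 4652 UMIs and 1416 genes, and their summed counts per library ran from 13371 to 282662 UMIs. A floor of 3 counts in a library was worth between 10.6 and 224 CPM, the unit of all levels given here (a gene's UMIs relative to the library's total over these cells), so a low gene could be missed altogether in the smaller libraries. Of the 153 cells, 3 had a barcode that also occurred in another library, and no barcode was shared by 2 of them. Scrublet called 60 doublets (0.704% of the cells), a low rate, and none was among the 153.

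The edge of the rule lay inside a continuous range of counts. Nkg7 and Ccl5 together had 0 UMIs in 43 of the cells, 1 in 65 and 2 in 45, and a further 48 cells that met all other limits had exactly 3. The coreceptor chain Cd8b1 had a single UMI in 52 cells and 2 or more in 101, and 12 cells with Cd8a but no Cd8b1 stayed outside. The limits on Cd79a and on the C1q genes left out 35 and 8 cells.

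Most of the 153 cells fitted the name, but 24 of them (15.7%, exact 95% interval 10.3 to 22.4%) carried 15 or more UMIs of another cell type's markers. These 24 cells held 26% of all UMIs of the 153. In 12 of them the markers were of endothelial cells, such as Stab2, Clec4g and Kdr, with 29 to 141 endothelial UMIs per cell and a median of 116. The cell with 29 also had 194 UMIs of monocyte, dendritic cell and neutrophil markers, more than of endothelial ones. Each of these 12 had a single Cd8b1 UMI, 10 had a single Cd3 UMI, 6 came from WT replicate 2 and 6 from YAP3d replicate 4. A further 10 cells had 20 to 64 UMIs of Siglech, Tcf4 and Cox6a2, genes that mark plasmacytoid dendritic cells, together with 2 to 10 Cd8b1 UMIs. Of these 10, 7 came from YAP3d replicate 4, and YAP3d replicate 2, YAP7d replicate 1 and YAP7d replicate 3 gave 1 each. Among all 148 cells of the series with this Siglech pattern, 46.6% had a Cd8b1 UMI and 26.4% a Cd3 UMI. Among all 1876 cells with 15 or more endothelial UMIs, 3.36% had Cd8b1 and 18.5% had Cd3. The remaining 2 cells were a cell of YAP3d replicate 1 with 28056 UMIs, of which 718 were of MHC class II genes and 22 of the dendritic cell gene Xcr1, and a cell of WT replicate 2 with 305 Apoe, 230 Spp1 and 32 Krt18 UMIs. The cell with 28056 UMIs made up 71.2% of the UMIs of its library's resting CD8 T cells.

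**Figure D1:**
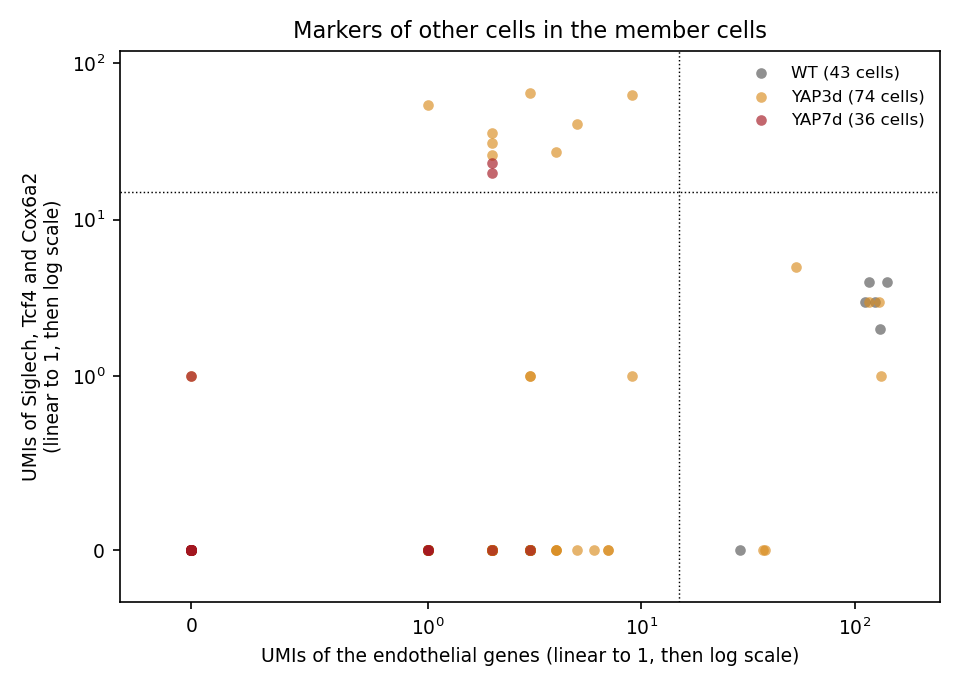
Each point is 1 of the 153 resting CD8 T cells, with its UMIs of endothelial marker genes on the x axis and its UMIs of Siglech, Tcf4 and Cox6a2 on the y axis, and dotted lines mark 15 UMIs. The 12 endothelial-marked and 10 Siglech-marked cells lie apart from the 129 unmarked cells, whose highest values were 9 and 1.

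The other 129 cells had at most 9 endothelial, 12 myeloid, 7 hepatocyte, 3 macrophage and 2 B cell marker UMIs. They had medians of 4495 UMIs in total, 4 of Cd8b1 and 8 of the Cd3 genes. Among the 91 of them with 2 or more Cd8b1 UMIs, 72 also had Cd8a and 0 had Cd4. Among the 38 with a single Cd8b1 UMI, 7 had Cd8a and 12 had Cd4, the coreceptor of the other main T cell class. The single-UMI cells were thus the least certain part of the population. Results on genes were computed on all 153 cells and again without the marked cells, and this second value is given for the results that turn on them. This second set was defined after the cells had been seen, so genes said to be past the threshold in it are a description of that alternative and not a test. The 24 cells were removed by the same limit that removed 10 of 270 effector and 8 of 144 CD4-type cells from the populations used for comparison.

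The named markers were present at single-cell level. Lef1, a transcription factor of naive T cells, had a UMI in 73.2% of the 153 cells and in 84.5% of the 129, against 2.09% of macrophages and 3.16% of B cells in the same libraries, whose median depths were 11632.5 and 3439 UMIs. Dapl1, a gene found in naive CD8 T cells, had a UMI in 37.9% and 45%, against 0.884% of macrophages and 0.54% of B cells. Both genes lay far above the level that free RNA gave in cells that should lack them. Tcf7, which acts with Lef1, was detected in 63.4% of the 153 cells, and Il7r, the interleukin 7 receptor chain, in 66.7%, against 1.53% and 1.37% of macrophages. Ccr7 and S1pr1, which guide recirculation, were detected in 71.2 and 56.2% of the 153, but B cells of these livers also had them in 67.2 and 32.4%. Klf2 was detected in 94.1% of the cells and also in 88.3% of macrophages, so its detection does not mark these cells. A median of 5 of these 7 genes was detected per cell, and 120 cells (78.4%) had 4 or more. Among the 129 cells the share was 92.2%, and among macrophages and B cells it was 0.0804 and 1.85%. In CD4-type T cells (Cd4 without Cd8a and Cd8b1) and in effector CD8 T cells (Cd8b1 with 3 or more UMIs of Nkg7 and Ccl5) it was 86.1 and 59.6%, so it is not particular to the resting CD8 cells. Dapl1 was found in 43.1 and 36.7% of these 2 populations and Lef1 in 78.5 and 59.6%, so neither gene is particular to them either.

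Genes of effector and exhausted T cells ranged from undetected to common. No UMI of Gzmk, of the inhibitory receptors Pdcd1 and Tigit, or of Foxp3, the regulator of regulatory T cells, was found in the 153 cells, which allows a share of up to 1.96% of cells with a UMI (3 counts of 153), or 2.38% by the exact 95% interval. Gzmb and Gzma, both cytotoxic granule proteases, had a UMI in 6.54 and 12.4% of the cells, against 13% and 28.8% of macrophages, so their detection did not exceed background. Ifng was found in 1.31%, against 5.87% of macrophages, and the proliferation gene Mki67 in 1.31%, against 25.6%. Lag3 was found in 6.54% of the 153 cells but in 0.775% of the 129, and Cxcr3 in 3.92% and in 0%. These last values moved with the marked cells. Klrd1, a chain of inhibitory NK receptors, Ctsw, a protease of CD8 and NK cells, and Tox, a factor of T cell exhaustion that other T cells also carry, were detected in 37.9, 30.7 and 16.3% of the 153 cells, against 13.9, 8.84 and 1.21% of macrophages. In effector CD8 T cells the shares were 60.0, 65.6 and 24.1%. At least 1 of Cd44, Il2rb, Ly6c2 and Cxcr3 was detected in 43.8% of the 153 cells and in 79.6% of the effector cells, but also in 86.5% of macrophages and 32.2% of B cells, so this share does not mark memory cells here.

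The resting CD8 T cells made up 1.79% of all cells (exact 95% interval 1.52 to 2.1%), and 36.2% (31.6 to 41.0%) of the 423 T cells with Cd8b1. Here T cells are the 2123 cells with a Cd3 UMI under the same limits on Cd79a and the C1q genes, and the intervals cover counting error only. As a share of all cells, the WT replicates stood at 0.768 and 2.75%, the YAP3d replicates at 1.07, 1.58, 1.66 and 2.23%, and the YAP7d replicates at 1.0, 0.868 and 1.42%. The WT replicates alone spanned all other libraries. As a share of T cells they stood at 3.36 and 7.86% in WT, at 3.06, 5.0, 5.98 and 7.97% in YAP3d and at 4.96, 6.45 and 10.2% in YAP7d. The groups overlapped here too.

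Among the T cells with Cd8b1, the resting cells took 44.4 and 38.6% in WT, 42.9, 17.1, 58.3 and 41.6% in YAP3d and 26.1, 33.3 and 32.1% in YAP7d. The 3 YAP7d replicates were all below both WT replicates, whereas YAP3d replicates lay on both sides. The means were 41.5% ± 4.12 (SD, n = 2) in WT, 40.0% ± 17.1 (n = 4) in YAP3d and 30.5% ± 3.88 (n = 3) in YAP7d. YAP7d was lower than WT by a mean difference of -11.0 percentage points, with a two-sided exact permutation p of 0.1, the smallest that 3 against 2 libraries allow, and 0.643 after Benjamini-Hochberg adjustment over 9 pairs. The direction turned, to 14.7 points, when each cell was thinned to 1000 UMIs and the rule was applied again. The resting cells were then 2 of 4 and 40 of 55 in WT and 9 of 12, 5 of 6 and 35 of 50 in YAP7d, so the groups overlapped, and without WT replicate 1 and its 4 cells the difference was 3.38 points. WT replicate 1 had only 9 T cells with Cd8b1, and its interval was 13.7 to 78.8%. Over all 3 groups, the exact permutation p was 0.513 for the share of all cells, 0.655 for the share of T cells and 0.548 for the share of T cells with Cd8b1, each 0.655 after adjustment over the 3 shares. No difference in abundance between the groups passed the threshold of 0.05.

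**Figure D2:**
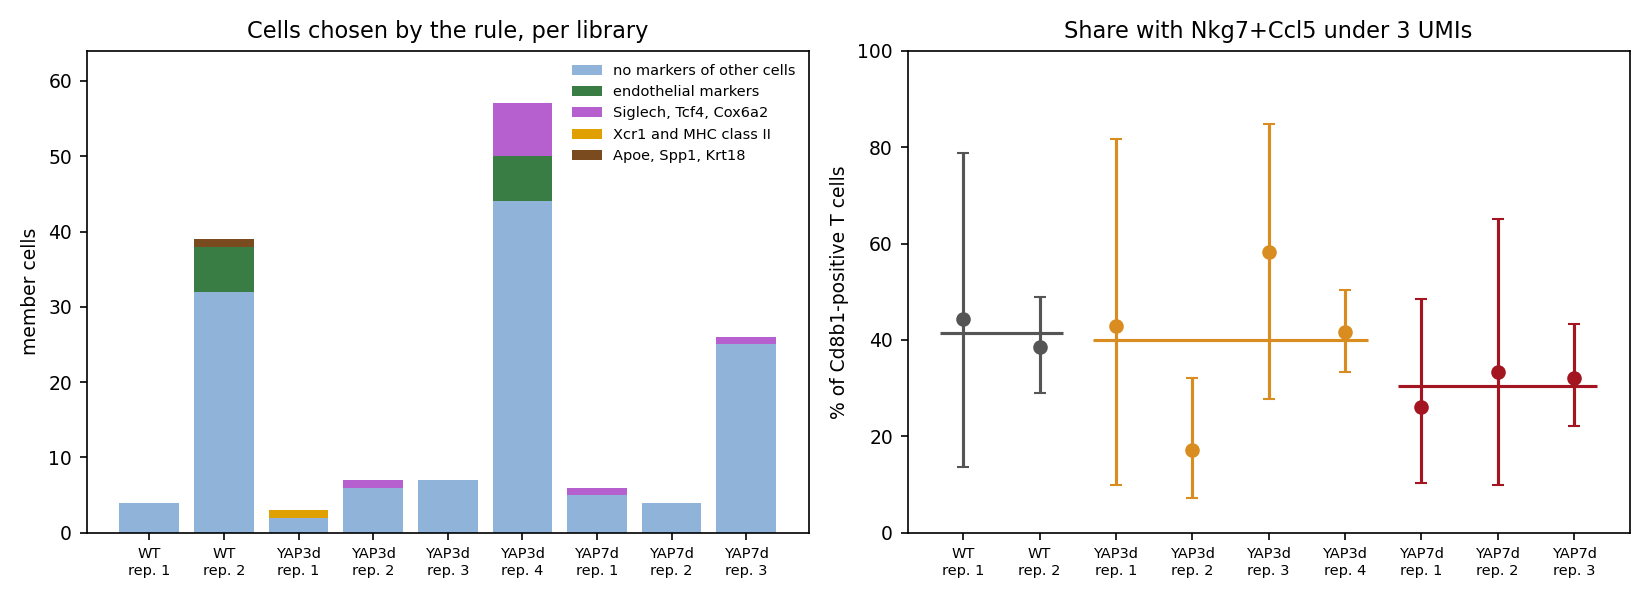
Left, the number of resting CD8 T cells in each library, stacked by whether a cell carried 15 or more UMIs of another cell type's markers; right, the percent of T cells with Cd8b1 that were resting in each library, with exact 95% intervals and a line at each group's mean. The counts run from 3 to 57, and the YAP7d percentages (26.1 to 33.3%) lie below both WT values (38.6 and 44.4%) within wide intervals, an order of the means that turned after thinning to 1000 UMIs, where the groups overlapped.

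The closest population to set them against was that of T cells with Cd8b1 and 3 or more UMIs of Nkg7 and Ccl5, called effector CD8 T cells here for this rule alone. There were 270 of them, with a median of 5647.5 UMIs and of 10.5 UMIs of Nkg7 and Ccl5. WT replicate 2, YAP3d replicate 4 and YAP7d replicate 3 had at least 10 cells of both populations, and summed counts were compared within these 3 libraries with edgeR's quasi-likelihood test. The populations were cut on Nkg7 and Ccl5 in the same cells, so differences in genes that vary with these follow in part from the cut. Of 4161 genes tested, 130 differed (3.12%), 83 higher (1.99%) and 47 lower (1.13%) in resting cells. The count was 85 without WT replicate 2, 31 without YAP3d replicate 4 and 313 without YAP7d replicate 3, and DESeq2 called 74.

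Cytotoxic genes were among those lower in resting cells. Gzmb, which cleaves proteins in target cells, stood at 11.1, 28.3 and 14.5 CPM in the resting cells of WT replicate 2, YAP3d replicate 4 and YAP7d replicate 3, and at 562, 289 and 562 CPM in their effector cells. Ifng, the antiviral cytokine interferon gamma, stood at 0, 0 and 7.23 CPM in resting cells and at 287, 40.7 and 587 CPM in effector cells. Gzma stood at 33.2, 21.2 and 28.9 CPM against 708, 186 and 387 CPM. The values of the populations did not overlap for any of these 3 genes. On the log2 scale resting minus effector was -4.40 ± 0.35 (SE, 3 libraries) for Gzmb and -3.79 ± 0.29 for Gzma, and without the marked cells -4.24 and -3.64. Ifng had 1 UMI in these resting cells and 336 in the effector cells, a ratio of 170 with a 95% counting interval of 30.3 to 6734. The activating receptor gene Klrk1 had 3 UMIs against 136, a ratio of 22.9 with an interval of 7.68 to 113. Both genes, the receptor gene Cd160 (-3.27 ± 0.45) and the chemokine gene Xcl1 (-4.34) were also among the 10 largest falls. Of the 15 tested genes of the cytotoxic list 7 were lower and 0 higher, with a median log2 difference of -2.16 against 0.01 over all genes tested. For the 12 tested without the marked cells it was -2.72, with 8 lower. Over all genes tested 1.13% were lower, and 1.82% without the marked cells.

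Some genes of the memory and effector list were lower as well. Il2rb stood at 16.6, 31.8 and 21.7 CPM in resting cells against 155, 165 and 106 CPM in effector cells, a log2 difference of -2.57 ± 0.31 (edgeR, adjusted p 0.002), or -2.11 without the marked cells. Cxcr3, a receptor that draws T cells into inflamed tissue, stood at 0, 14.2 and 0 CPM against 132, 85.6 and 79.1 CPM (-3.83 ± 0.58). All of its UMIs in resting cells lay in marked cells, and without them it was at least 15.3-fold lower over the 3 libraries, taking 3 counts as the floor. Ly6c2, carried by memory CD8 T cells, stood at 205, 492 and 376 CPM against 849, 615 and 947 CPM, with a log2 difference of -1.14 ± 0.27 (adjusted p 0.046) that became -2.30 ± 0.19 without the marked cells. Ly6c2 is also high in plasmacytoid dendritic cells, and its own UMIs were not counted when cells were marked. Cd44, the usual protein marker of memory cells, did not pass (-0.09, adjusted p 0.95). Il4 had 0 UMIs in the resting cells and was at least 16.9-fold lower, and 2810417H13Rik was at least 14.8-fold lower. Of the 12 tested genes of the memory and effector list 4 were lower, Cxcr3, Il2rb, Id2 and Ly6c2, with a median of -1.26, and without the marked cells 6 of 10, with a median of -1.80. The shares over all genes tested were 1.13 and 1.82%.

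All 19 tested proliferation genes lay below 0, with a median of -1.10. Over all genes tested 47 of 4161 (1.13%) were lower, and of the 19 proliferation genes 4 passed the test. These were Top2a, which untangles DNA and had 1 UMI in resting cells against 53 in effector cells, Birc5 (-2.55), which acts in cell division, and Stmn1 (-1.44) and Hmgb2 (-1.10), which rise in dividing cells. Without the marked cells the median over 14 genes was -0.74, and H2afz (-0.67) alone was past the threshold. Among 7 tested checkpoint genes, Cd160 and Nr4a2 (-1.82) were lower.

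**Figure D3:**
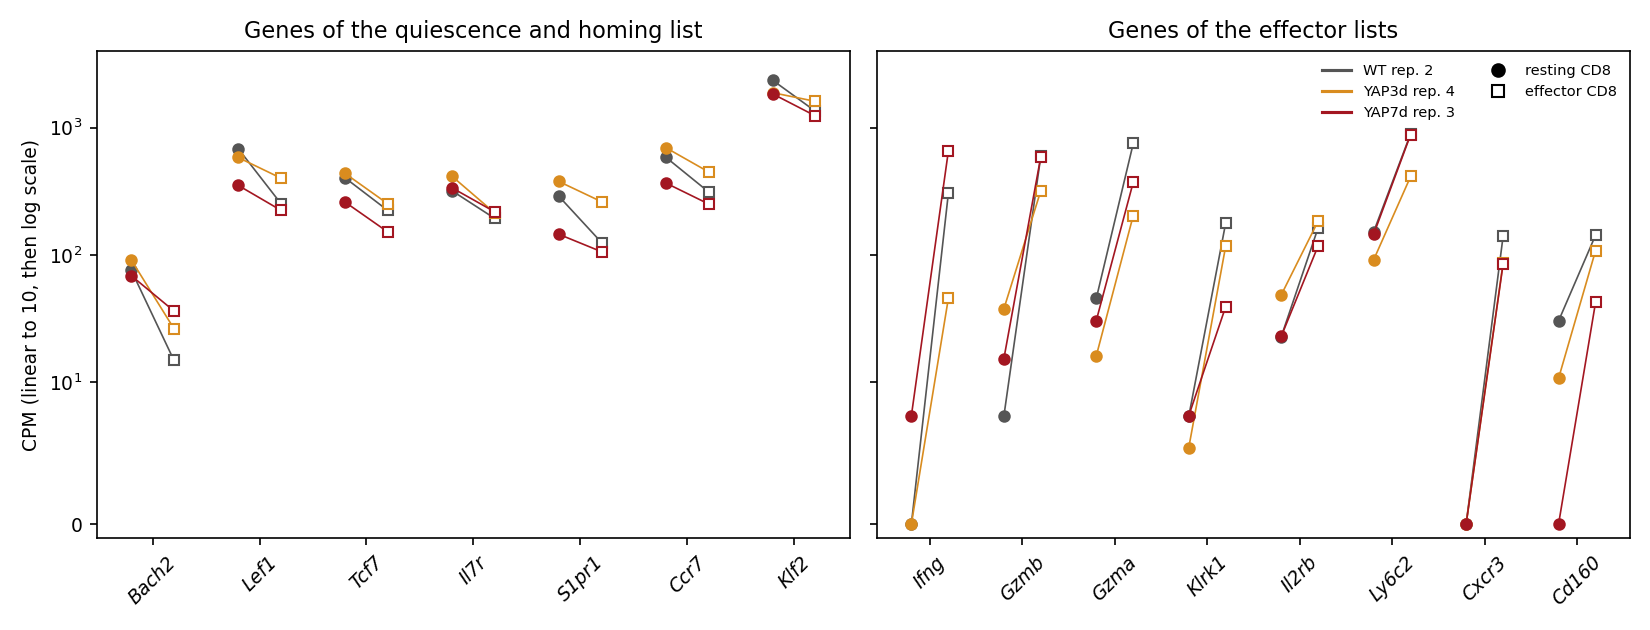
Levels in CPM (axis linear to 10 CPM, then log) for genes of resting T cells (left) and of cytotoxic and memory T cells (right) in WT replicate 2, YAP3d replicate 4 and YAP7d replicate 3, without the marked cells, with circles for resting and open squares for effector CD8 T cells. Lef1 stood at 684, 582 and 352 CPM in resting cells against 253, 401 and 224 CPM in effector cells, and Gzmb and Ifng lie far lower in resting cells in each library.

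The 83 genes that were higher in resting cells were mostly those of the marked cells. Endothelial genes led them, with Sdpr (4.54 ± 0.45), Cldn5 (3.74), which seals endothelial junctions, Timp3, Plpp1, Jam2, Bmp2, Esam, Plpp3, Cdh5 and Slc43a3 (3.14) as the 10 largest. In 67 of the 83, over 50% of the UMIs in resting cells lay in the 12 endothelial-marked cells, and in 80 over 50% lay in the 24 marked cells. The median was 88.5% of a gene's UMIs, against 32.0% over all genes tested. All 7 tested endothelial markers were among the 83, with a median of 2.44, and without the marked cells 0 of 5 were past the threshold and the median was 0.43. Cells were marked by UMIs of this same list, so its fall follows from the marking and is no separate evidence. Of the 83 genes 25 were still tested without the marked cells, 18 with the same sign and 1 past the threshold, whereas of the 47 lower genes 45 were tested, all 45 with the same sign and 32 past the threshold.

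Genes of the resting state gave values that depended on the marked cells. With all cells Lef1 stood at 509, 389 and 332 CPM in resting cells of WT replicate 2, YAP3d replicate 4 and YAP7d replicate 3, and at 250, 364 and 202 CPM in effector cells. Its log2 difference was 0.61 ± 0.23, which did not pass (edgeR, adjusted p 0.242). Bach2 (1.39 ± 0.37, adjusted p 0.074), a factor that restrains effector differentiation, did not pass either. Of 20 tested genes of the resting list 16 lay above 0, with a median of 0.39, and only Igfbp4 (1.44 ± 0.22, adjusted p 0.004) passed, with 46.8% of its UMIs in marked cells.

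Without the marked cells all 20 lay above 0, with a median of 0.69 against 0.02 over all 3073 genes, and 9 were past the threshold in an alternative added after the cells had been seen. These were Bach2 (1.75 ± 0.38), Lef1 (1.01 ± 0.19), Igfbp4 (0.96 ± 0.19), Tcf7 (0.95 ± 0.17), Il7r (0.92 ± 0.17), S1pr1 (0.85 ± 0.21), Ccr7 (0.84 ± 0.16), Foxp1 (0.76 ± 0.20), a further quiescence factor, and Klf2 (0.67 ± 0.13). Per library, Tcf7 then stood at 403, 436 and 260 CPM against 223, 252 and 152 CPM in effector cells. Il7r stood at 319, 415 and 337 CPM against 194, 214 and 218 CPM. Bach2 stood at 76.0, 91.6 and 68.8 CPM against 14.9, 26.4 and 36.4 CPM. The populations did not overlap in any of these 3 genes. Dapl1 did not separate them, with 433, 237 and 390 CPM against 262, 353 and 300 CPM and a log2 difference of 0.31 ± 0.22. A UMI of Dapl1 was also found in 36.7% of effector cells. In total, 89 of 3073 genes (2.9%), 33 higher (1.07%) and 56 lower (1.82%), were past the threshold without the marked cells, and 33 of them were among the 130. The balance of directions turned with DESeq2 on these cells, to 54 higher and 23 lower, and with edgeR without YAP3d replicate 4, to 64 higher and 30 lower.

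In GRCm38.p6 coordinates, these genes lie at chr3:131110297-131224357 (Lef1), chr11:52246527-52283383 (Tcf7), chr15:9506159-9529941 (Il7r) and chr4:32238413-32586109 (Bach2). Each interval is the whole annotated gene.

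**Figure D4:**
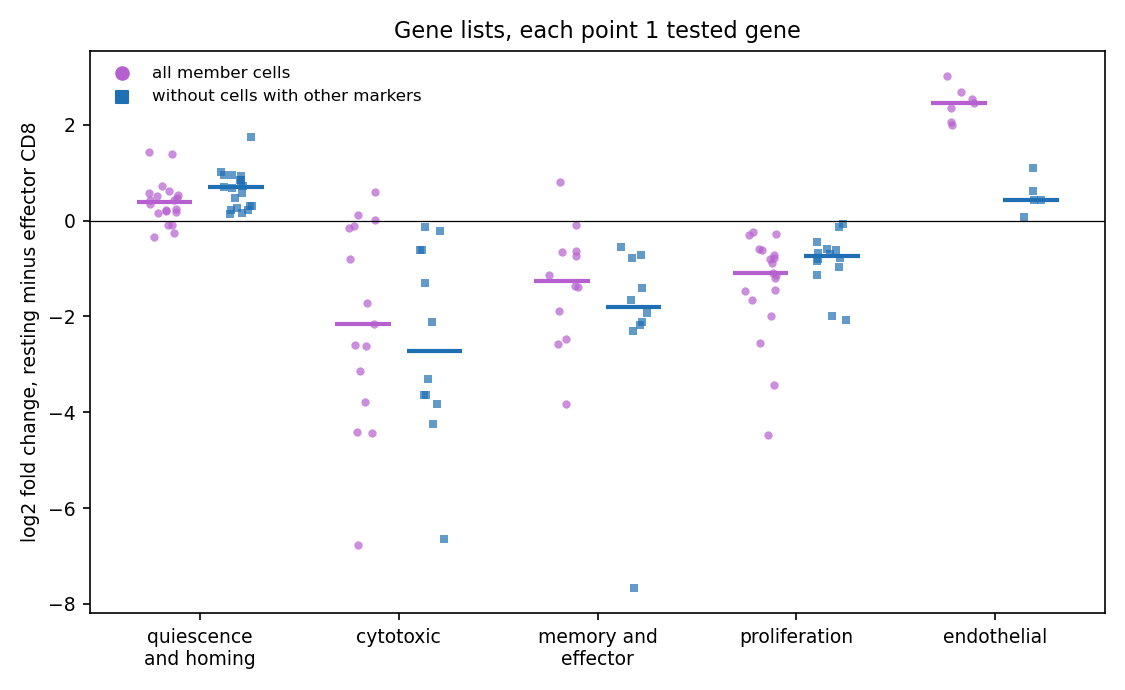
Log2 difference of each tested gene, resting minus effector CD8 T cells, in 5 gene lists, with all 153 cells and without the marked cells; horizontal bars are list medians. The resting list moves from a median of 0.39 to 0.69, the cytotoxic list from -2.16 to -2.72, and the endothelial list from 2.44 to 0.43. Cells were marked by UMIs of the endothelial list, so its fall follows from the marking.

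Ribosomal protein genes did not pass the test with all cells. Of 80 tested, 60 lay above 0 with a median of 0.06 and 0 passed with edgeR. Without the marked cells 77 of 78 lay above 0, with a median of 0.32, and 11 were past the threshold. Over all genes tested without the marked cells, 33 of 3073 (1.07%) were past it and higher.

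Levels at each count of Nkg7 and Ccl5, which the rule used, are a description over cells pooled from all libraries. Among the 129 cells, Lef1 stood at 651, 532 and 594 CPM in cells with 0, 1 and 2 UMIs of the pair, and at 503 CPM in unmarked cells just outside with 3. Tcf7 stood at 453, 368, 362 and 372 CPM across the same steps. Ctsw stood at 55.6, 76.1, 159 and 136 CPM and Cd8a at 199, 241, 295 and 322 CPM, both lowest in cells with none of the pair. Gzma and Il2rb were found there in only 1 and 2 of 34 cells, too few to give a level. Dapl1 stood at 151, 308, 507 and 468 CPM, Ly6c2 at 55.6, 114, 140 and 302 CPM. Cd4 had a UMI in 5 of 34, 5 of 52, 2 of 43 and 2 of 42 cells. Cells with none of the pair were also shallower, with a median of 3296 UMIs against 4498.5, 5027 and 4608.

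A second comparison was made with CD4-type T cells, which had at least 1 Cd4 UMI, no Cd8a or Cd8b1 and the same low limit on Nkg7 and Ccl5 (144 cells, median 4299.5 UMIs). In the same 3 libraries 1 of 2220 genes differed (0.045%). This gene was Ly6c2, at 205, 492 and 376 CPM in resting CD8 cells against 38.5, 73.3 and 133 CPM in CD4-type cells (log2 difference 2.32 ± 0.28, edgeR, adjusted p 0.035). In the marked cells lay 77.5% of its UMIs, and without them it was 1.28 ± 0.41 and not past the threshold. DESeq2 called 3 genes, and edgeR gave an unadjusted p below 0.05 for 191. The edgeR count was 5 without WT replicate 2, 0 without YAP3d replicate 4 and 27 without YAP7d replicate 3. The genes with the next lowest p were Ly6d, Ccl4, 5730508B09Rik (2.36 ± 0.40, adjusted p 0.124) and Izumo1r (-2.03 ± 0.38), a folate receptor family gene of CD4 T cells, none of which passed.

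The resting list did not set the CD8 and CD4-type cells apart. Of its 19 tested genes 5 lay above 0 with a median of -0.15 and 0 passed, and without the marked cells 10 of 18 lay above 0 with a median of 0.14. Lef1 stood at 670, 569 and 174 CPM in CD4-type cells of the 3 libraries, beside 509, 389 and 332 CPM in resting CD8 cells, and a UMI of it was found in 78.5% of CD4-type cells. Without the marked cells 11 of 1651 genes (0.666%) were past the threshold, 6 higher (0.363%) and 5 lower (0.303%) in resting CD8 cells. DESeq2 called 0 on the same cells, and edgeR called 0 without YAP7d replicate 3, so the genes named next depend on that library and on the tool. Klrd1 (2.20 ± 0.40) and Ctsw (1.99 ± 0.48) were higher in CD8 cells, and 5730508B09Rik (2.84), Dnajc15 (1.56), Epsti1 (1.47) and Fam189b (1.37) went with them. Klrd1 then stood at 122, 183 and 153 CPM against 8.16, 57.1 and 35.2 CPM. Lower were Cd40lg (-2.10), the helper signal to B cells, Izumo1r (-1.90), Ly6a (-1.84), S100a6 (-1.29) and Zfp36l2 (-1.04).

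Between the groups no gene passed the test in these cells. Summed counts of all 9 libraries, each with 3 or more cells, were fitted together with edgeR for 606 genes. Between YAP7d and WT 0 genes passed (0%), with 25 at an unadjusted p below 0.05, and DESeq2 called 0 with 20. Between YAP3d and WT 0 passed (0%), with 17 unadjusted, and DESeq2 called 0 with 16. Between YAP7d and YAP3d 0 passed (0%), with 24 unadjusted, and DESeq2 called 0 with 22. Fits without the marked cells left out YAP3d replicate 1, which then had 2 cells. The first 2 comparisons share the WT libraries, and 6 of the 9 libraries held 7 or fewer of the cells. The genes with the lowest p are given as values.

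Bcl2, which protects lymphocytes from apoptosis and is maintained by interleukin 7, had the third lowest p between YAP7d and WT and the lowest between YAP7d and YAP3d. It stood at 180 and 266 CPM in WT, at 229, 412, 711 and 180 CPM in YAP3d and at 902, 1870 and 773 CPM in YAP7d. All YAP7d replicates were above all others. The means were 223 ± 60.6 CPM in WT, 383 ± 240 in YAP3d and 1182 ± 599 in YAP7d, and the log2 difference between YAP7d and WT was 2.20 ± 0.64 (edgeR, adjusted p 0.897) and between YAP7d and YAP3d 1.60 ± 0.49 (adjusted p 0.879). Neither passed. Without the marked cells the first was 1.91 ± 0.47 with edgeR and not past the threshold, and 2.03 ± 0.51 with DESeq2, where it was past it. In the effector cells of WT replicate 2, YAP3d replicate 4 and YAP7d replicate 3 Bcl2 stood at 304, 231 and 718 CPM, and in their CD4-type cells at 523, 332 and 337 CPM. The gene lies at chr1:106538176-106714290 in GRCm38.p6.

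Il7r stood at 240 and 243 CPM in WT, at 254, 541, 526 and 294 CPM in YAP3d and at 433, 598 and 318 CPM in YAP7d. All YAP3d and YAP7d replicates were above both WT replicates, with a log2 difference between YAP7d and WT of 0.77 ± 0.47 that did not pass. Tmsb10, an actin-binding peptide, stood at 9836 and 7515 CPM in WT, at 5866, 5877, 6988 and 5098 CPM in YAP3d and at 2670, 5684 and 5984 CPM in YAP7d. Every YAP3d and YAP7d replicate was below both WT replicates. Its log2 difference between YAP7d and WT was -0.85 ± 0.31, and -0.86 ± 0.15 without the marked cells, where it was past the threshold with the pseudogenes Gm9844 (-3.02) and Rpl27-ps3 (-1.80), 3 of 391 genes (0.767%). With the marked cells, Rpl27-ps3 (-1.76 ± 0.43) and Gm9844 (-3.03 ± 0.81) had the lowest p, and neither passed (adjusted p 0.897). Reads of a pseudogene may be shared with its parent gene, so both values are uncertain. Il7r and Tmsb10 separated from both WT replicates, but with 2 WT libraries some of 606 genes do so by chance. The share of genes that did is not given here.

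**Figure D5:**
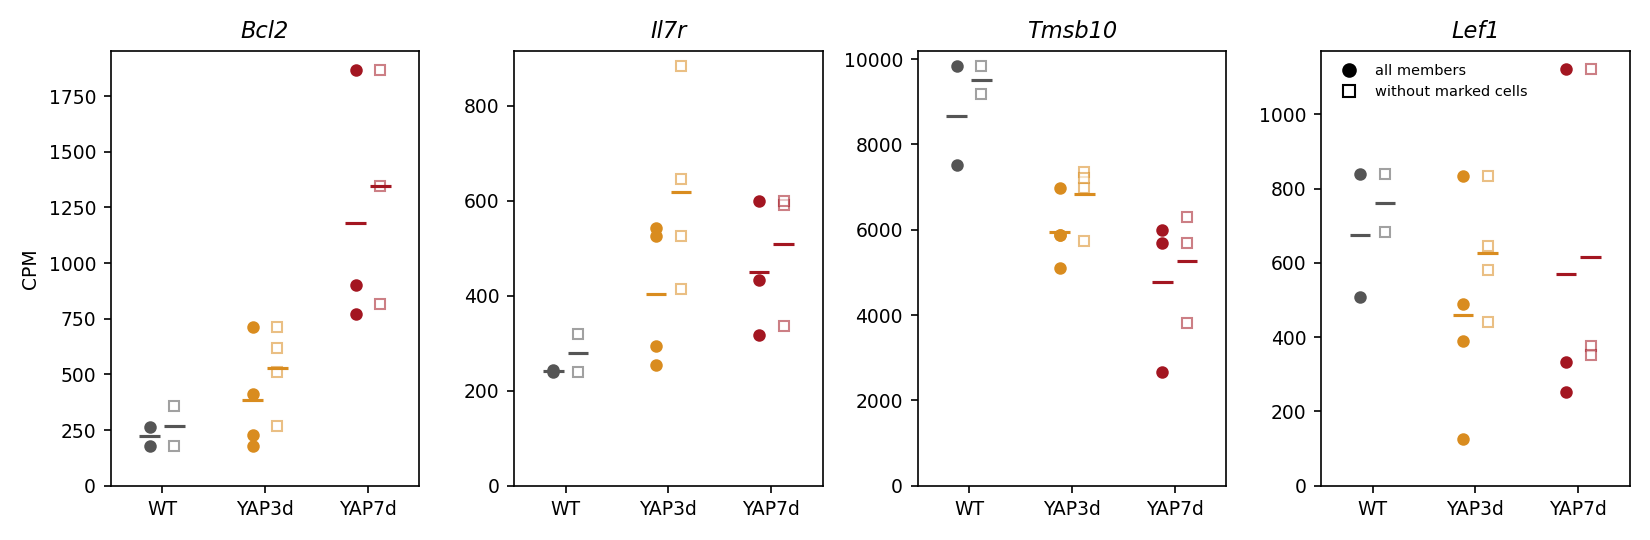
Levels in CPM of Bcl2, Il7r, Tmsb10 and Lef1 in the resting CD8 T cells of each library by group, with all cells and without the marked cells. Bcl2 stood at 773 to 1870 CPM in YAP7d against 180 to 266 CPM in WT, Tmsb10 was highest in both WT replicates, and Lef1 overlapped between the groups.

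Unlike Il7r, other genes of the resting state that were followed overlapped between the groups. Lef1 stood at 840 and 509 CPM in WT, at 127, 490, 835 and 389 CPM in YAP3d and at 253, 1122 and 332 CPM in YAP7d. Ccr7 stood at 660 and 432 CPM in WT, at 279, 438, 680 and 467 CPM in YAP3d and at 722, 1271 and 347 CPM in YAP7d. Klf2 stood at 1739 and 2014 CPM in WT, at 533, 2655, 2134 and 1666 CPM in YAP3d and at 3752, 2318 and 1749 CPM in YAP7d. In all 3 genes the range within YAP7d or YAP3d was wider than the distance between the group means. The low YAP3d values came from replicate 1, where a single marked cell held 71.2% of the UMIs. Tcf7 ranged from 180 to 299 CPM in WT, from 50.8 to 438 CPM in YAP3d and from 246 to 748 CPM in YAP7d. Dapl1 stood at 0 CPM in YAP7d replicate 2, whose 4 cells give a floor of 224 CPM. Of the 16 tested genes of the resting list 12 lay above 0 between YAP7d and WT with a median of 0.19, against 0.01 over all genes tested, and 4 of 16 between YAP3d and WT with a median of -0.14. With the marked cells left out, 10 of 14 lay above 0 in both comparisons, with medians of 0.06 and 0.16, so the second turned.

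Other gene groups were followed between the groups in the same way. Of 8 tested heat shock genes 0 lay above 0 between YAP7d and YAP3d, with a median of -0.75, and 3 lay above 0 between YAP7d and WT, with a median of -0.35. Leaving out the marked cells, 1 of 5 and 0 of 5 lay above 0, with medians of -0.72 and -0.65. The summed heat shock genes then stood at 5578 and 4864 CPM in WT and at 4358, 2692 and 2953 CPM in YAP7d, which did not overlap, whereas with all cells YAP7d replicate 1 stood at 5628 CPM and the groups overlapped. YAP3d stood at 6359, 5902, 6896 and 3708 CPM without the marked cells, overlapping both. In effector cells WT (5524 and 6589 CPM) and YAP7d (7318, 4344 and 3460 CPM) overlapped as well. A separation of 3 from 2 libraries has an exact permutation p of at least 0.1, and the share of lists that separated is not given here. Heat shock genes were not alone in lying lower. Without the marked cells 0 of 5 MHC class I genes lay above 0 between YAP7d and WT (median -0.45), against 10 of 14 genes of the resting list. Hspa1a, a chaperone gene induced by stress and by tissue dissociation, stood at 240 and 692 CPM in WT, at 203, 0, 247 and 184 CPM in YAP3d and at 36.1, 0 and 7.23 CPM in YAP7d. It also stood at 481, 60.0 and 0 CPM in the effector cells of WT replicate 2, YAP3d replicate 4 and YAP7d replicate 3. Of 32 tested genes of oxidative phosphorylation 10 lay above 0 between YAP7d and WT (median -0.20), and of 78 ribosomal protein genes 59 did (median 0.19). In the unmarked cells these were 7 of 21 (median -0.15) and 57 of 77 (median 0.15). None of these genes passed. Over all genes tested between YAP7d and WT, 308 of 606 lay above 0 with all cells (median 0.01). Without the marked cells 179 of 391 did (median -0.06). Hspa1a, with 2 UMIs in YAP7d, was lower in YAP7d than in WT without a filter on low counts (edgeR, adjusted p 7.44e-04), with a minimum of 5 cells per library (adjusted p 0.021) and with this minimum and without the marked cells (adjusted p 4.14e-04), the last 2 with a single WT library. The pseudogene Gm10709 stood at 0 and 22.1 CPM in WT, at 533, 593, 0 and 7.08 CPM in YAP3d and at 361, 449 and 773 CPM in YAP7d, so that it divided the YAP3d replicates into high and low. In effector cells of WT replicate 2, YAP3d replicate 4 and YAP7d replicate 3 it stood at 2.81, 19.3 and 761 CPM, so this difference between libraries was not particular to the resting cells. Without a filter on low counts Gm10709 was higher in YAP7d than in WT (edgeR, adjusted p 0.0023). With a minimum of 5 cells and without the marked cells, with a single WT library, its log2 difference was 4.77. Between YAP7d and YAP3d it was 2.44 in that fit.

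Several genes with a low p between groups belonged to the marked cells. Between YAP3d and WT the lowest p were those of H2-DMa, Siglech, Cd74, Irf8 and Pld4, genes of antigen-presenting and plasmacytoid dendritic cells, none of which passed (edgeR, adjusted p 0.996). Siglech had 100% of its UMIs in marked cells, Irf8 97.7%, Pld4 93.1% and Cd74 88.2%. Siglech was itself counted when cells were marked, so its share follows from the marking and is no separate evidence. The summed endothelial markers stood at 240 and 3924 CPM in WT, at 102, 206, 247 and 2264 CPM in YAP3d and at 72.2, 0 and 72.3 CPM in YAP7d. Their high values lay in the libraries that held the endothelial-marked cells, which were marked by these same genes.

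Whether YAP induction changed the resting cells differently from the effector cells was tested as an interaction in all 9 libraries, each with 3 or more cells of both populations, with the library as a block. For the YAP7d minus WT effect 0 of 796 genes passed with edgeR (0%), with 11 at an unadjusted p below 0.05, and DESeq2 called 0 with 7. For the YAP7d minus YAP3d effect 0 of 796 passed (0%), with 9 unadjusted, and DESeq2 called 0 with 10. Without the marked cells the counts were 0 and 1 of 1542 genes (0 and 0.0649%), the 1 being Cxcr6, a chemokine receptor of liver-resident T cells. DESeq2 called 0 for both effects on these cells. Leaving out YAP3d replicate 4 as well, the count for YAP7d minus YAP3d was 37 of 683 genes, so it depends on the libraries used. With all cells a difference between the responses of the populations was not detectable at this depth.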

How the data were processed

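Single-cell 3′ libraries were made in droplets from livers, 2 libraries of WT, 4 of YAP3d and 3 of YAP7d. The authors aligned reads to mm10 with Cell Ranger, and the deposited table holds their integer UMI counts per gene and cell, not normalized (27998 genes, 8562 cells). The library of each cell was read from its name. Where nothing says that libraries came from separate animals, p-values measure only the spread between libraries. Symbols were matched to RefSeq GRCm38.p6 (23836 found).

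Cells were chosen by the rule given with the results, with no filter on mitochondrial counts (none of the 153 cells exceeded 10%). Scrublet doublets were kept. The members, gene lists and tests were chosen with earlier results of these data known. A gene of the resting list is not reported here. The 10 genes of the rule stayed in library sizes and out of the calls.

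Counts were summed per library and population, filtered with filterByExpr, scaled with TMM and fitted with edgeR 4.0.16 (quasi-likelihood) in R 4.3.3, with a Benjamini-Hochberg adjusted p threshold of 0.05. Groups were fitted together, and populations with the library as a block, in libraries with at least 10 cells of both. A minimum of 10 cells left 1 library per group, so a minimum of 3 cells was used for the groups and for the interactions, chosen after the cell numbers were seen. DESeq2 1.42.0 was the second tool. CPM values use library totals without TMM, and fitted log2 differences have an SE. Shares were compared with exact permutation tests in scipy 1.17.1 and have Clopper-Pearson intervals. The script was tested on simulated data. Other packages were limma 3.58.1, Python 3.11.15, numpy 2.4.6, pandas 2.3.3, scanpy 1.11.5 and matplotlib 3.10.9.

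Named genes are, per comparison, at most the 10 largest rises and falls among genes with an adjusted p below 0.05 and a mean of 50 CPM in a group, or the 5 lowest p where fewer than 5 passed, a fixed set of T cell genes whatever their change, and members of a described list. Igfbp7 and Rps27rt, and Rps23, Dynll1 and Rpl13-ps3, complete the 5 lowest p between YAP7d and WT and between YAP7d and YAP3d. The further genes of the marked cells, Hspa1a, Tmsb10 and Gm10709 were chosen after their values were seen. Other settings tried were another scaling, no filter on low counts, thinning to 1000 UMIs, other cell limits and leaving out libraries.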

Additional observations from a re-analysis of the deposited data

Results flagged for a closer look

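In 13 groups of list levels in the 4 YAP3d replicates, 3 had a library far from the others, by the gap to the nearest replicate relative to the range. Chance gives this in about 1 in 20 groups. The summed proliferation genes of the resting CD8 T cells stood at 5536 CPM in YAP3d replicate 1 against 1830 to 2317 CPM in the other YAP3d replicates, and at 1590 CPM there without the marked cells. The summed immediate early genes stood at 4749 CPM in the same library against 6547 to 6895 CPM, and at 5123 CPM against 6003 to 7055 CPM without the marked cells. A single cell with 28056 UMIs and MHC class II genes held 71.2% of this library's UMIs and was its only marked cell. The summed endothelial markers stood at 2264 CPM in YAP3d replicate 4 against 102 to 247 CPM, and at 587 CPM there without the marked cells. Cells were marked by these same genes, so the fall follows from the marking.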

How the results depend on the processing

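The 3 large libraries carry most values, cells with a single Cd8b1 UMI are the least certain, and libraries with 7 or fewer cells give a gene a value only above a floor of up to 224 CPM. The difference between YAP7d and WT in the share of all cells turned to 0.328 percentage points without WT replicate 2 (range -1.66 to 0.328 over libraries left out), and in the share of T cells to -0.661 without WT replicate 1 (range -0.661 to 3.84). In the share of T cells with Cd8b1 it ranged from -13.9 to -8.11 over libraries left out, but was 14.7 after thinning each cell to 1000 UMIs, or 3.38 there without WT replicate 1. Thus no direction of abundance held under every setting.

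Genes past the threshold between YAP7d and WT, 0 in the results, numbered 40 without a filter on low counts, 4 with a term for large libraries, 2 after thinning, 2 with cells that had at least 1 UMI of Cd8a or Cd8b1 (165 resting cells), 20 with a minimum of 5 cells, 3 without the marked cells, 10 with both of these last changes and 2 without the marked cells with DESeq2. Between YAP3d and WT they numbered 17 without a filter, 2 with Cd8a or Cd8b1, 3 with a minimum of 5 cells and 5 with this and without the marked cells. Between YAP7d and YAP3d they numbered 11 without a filter, 2 with the term, 1 after thinning and 4 with a minimum of 5 cells and without the marked cells. A minimum of 5 cells and thinning left WT with replicate 2 alone, so the counts against WT there rest on 1 library that is assumed to vary like the other groups, as do those without a WT replicate. Leaving out libraries gave 0 to 1, 0 to 1 and 0 in the 3 comparisons, and 0 to 7 (6 without YAP3d replicate 2), 0 to 1 and 0 to 3 without the marked cells.

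The 130 genes between resting and effector cells became 74 with DESeq2, 337 without a filter, 198 with Cd8a or Cd8b1, 77 without the marked cells with DESeq2, 31 to 313 over libraries left out and, without the marked cells, 58 without WT replicate 2, 94 without YAP3d replicate 4 and 73 without YAP7d replicate 3. After thinning each cell to 1000 UMIs 123 of 353 genes tested passed, 60 higher and 63 lower, and only 15 of them were among the 130. The 1 gene between resting and CD4-type cells became 3 with DESeq2, 49 without a filter, 0 after thinning, 3 with Cd8a or Cd8b1, 0 without doublets, 27 with a minimum of 20 cells, 2 with a minimum of 3, 11 without the marked cells, 0 without them with DESeq2, 0 to 27 over libraries left out and 0 to 22 without the marked cells. The interaction for YAP7d minus WT gave 1 gene without a filter and 5 with Nkg7 and Ccl5 at 0. That for YAP7d minus YAP3d gave 1 without a filter, 1 after thinning, 8 with Nkg7 and Ccl5 at 0, where replicate 4 was the only YAP3d library, 1 without the marked cells, 0 to 1 over libraries left out and 0 to 37 without the marked cells, where 37 came without YAP3d replicate 4. The causes were not tested.

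Samples with the same replicate number did not pair (correlations of deviations -0.309 to 0.259 in 7 pairs, 1 over 0.1), and 2 libraries correlated best with their own number. With a replicate block 0 genes passed in each of the 3 group comparisons with edgeR, with 51, 49 and 28 at an unadjusted p below 0.05. For the 10 largest called changes in each direction, Il2rb and Ly6c2 between resting and effector cells and Ly6c2 against CD4-type cells, 263 values under other settings kept their direction and side of the threshold, 17 lost the threshold and 0 turned. The 10 rises, all of genes found mostly in marked cells, were not tested without these cells and have no value there, and of the 83 genes that rose 25 were tested there, 18 with the same sign and 1 past the threshold. A minimum of 20 cells for groups and interactions, and Nkg7 and Ccl5 at 0 for the populations, could not be fitted.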
